A study of Mus musculus with 9 samples.

Results

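The Krüppel-like factors (KLF) are transcription factors, and 9 of their genes were followed in bone marrow stem and progenitor cells that had lost Abi1: Klf2, Klf3, Klf4, Klf6, Klf7, Klf9, Klf10, Klf12 and Klf13. They were taken by symbol from the array's probe annotation, and all 9 were found among the 30142 genes with a probeset of their own. Each had 1 probeset, and each lay above background in 9 of 9 arrays. The set was selected on measured values, the higher means of Klf2 and Klf6 in the knockout on these same arrays, so the comparison of knockout with wild type is given for the 9 genes as a description, with no p-value.

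The samples were LSK cells, which lack the markers of mature blood lineages, carry Sca-1 and c-Kit and hold the haematopoietic stem cells and earliest progenitors. The 4 knockout (KO) mice were Abi1(-/-);Tg (Mx1-cre(+)), and the 5 wild-type (WT) mice were Abi1(fl/fl);Tg (Mx1-cre(-)). All received 3 injections of poly(I:C) at 8 to 9 weeks of age, and marrow was taken at 12 to 14 weeks. Mx1-cre is driven by an interferon-responsive promoter that is active in many cell types, and only KO mice carried it, so an effect of Cre and one of the deletion cannot be told apart. The protein made from Abi1 belongs to the WAVE complex and acts on the actin skeleton. RNA of 1 mouse, 5 ng before amplification, went on each array. Values are log2 signals, so a difference of 1 is a doubling if the deposited scale is log2, as its range implies.

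KLF proteins bind GC-rich and CACCC sequences through 3 zinc fingers at the C-terminus, and their N-terminal regions recruit activators or repressors. KLF2 and KLF4 are known for holding blood and endothelial cells in a resting state, KLF4 also for monocyte differentiation, and KLF6 for inducing the cell cycle inhibitor gene Cdkn1a. Klf2, Klf4, Klf6 and Klf10 are switched on within minutes to hours of many stimuli, as are the immediate early genes. KLF3 and KLF12 repress through the corepressor CtBP, and KLF9, KLF10 and KLF13 through SIN3A.

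The promoters of Klf2, Klf4 and Klf6 are shown because these 3 genes varied most between arrays, a choice made after their values were seen. The sequences are the 250 bases before the RefSeq transcription start (GRCm38.p6), 5′ to 3′ on the gene's strand. Capitals mark matches to the GC box (GGGCGG), the CCAAT box (CCAAT) and the site of MEF2 (CTA, then 4 bases of A or T, then TAG), the factor through which the kinase ERK5 turns on Klf2.
Klf2 promoter, chr8:72318812-72319061, plus strand: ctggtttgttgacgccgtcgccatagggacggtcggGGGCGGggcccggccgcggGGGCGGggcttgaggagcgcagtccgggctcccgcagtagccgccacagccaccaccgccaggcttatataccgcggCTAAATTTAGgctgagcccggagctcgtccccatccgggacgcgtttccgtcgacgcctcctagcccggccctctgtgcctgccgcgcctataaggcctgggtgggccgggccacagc
Klf4 promoter, chr4:55532476-55532725, minus strand: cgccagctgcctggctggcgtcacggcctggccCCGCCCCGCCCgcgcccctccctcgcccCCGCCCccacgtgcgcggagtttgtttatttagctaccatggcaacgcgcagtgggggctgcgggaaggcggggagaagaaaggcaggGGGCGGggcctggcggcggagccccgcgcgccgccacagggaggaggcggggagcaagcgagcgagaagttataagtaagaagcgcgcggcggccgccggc
Klf6 promoter, chr13:5861239-5861488, plus strand: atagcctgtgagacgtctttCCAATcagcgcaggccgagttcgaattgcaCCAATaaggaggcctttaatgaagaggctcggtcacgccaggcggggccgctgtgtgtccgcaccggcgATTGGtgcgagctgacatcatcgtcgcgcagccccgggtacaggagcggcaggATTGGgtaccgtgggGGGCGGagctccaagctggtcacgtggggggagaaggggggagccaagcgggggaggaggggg

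Of the 9 genes, 8 had a promoter in the table used here, and Klf10 did not. Matches were sought on both strands, and overlapping matches were counted separately. The Klf2 promoter held a MEF2 match 118 to 109 bases before the start. Such a match occurred in 0.508% of all 32851 promoters of the same length and in none of the other 7 KLF promoters. GC boxes were found in 6 of the 8 KLF promoters and in 32.7% of all promoters, with 2 in Klf2, 4 in Klf4 and 1 in Klf6. The CACCC box (CACCC), the sequence KLF proteins themselves bind, was also in 6 of 8 and in 52.0% of all.

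The Klf6 promoter held 4 CCAAT boxes, while Klf2 and Klf4 held none, and 33.8% of all promoters held at least 1. An E box (CACGTG) lay in the Klf4 and Klf6 promoters and in 6.02% of all. The NF-kappaB pattern (GGG, any 5 bases, CC), which GC-rich sequence meets easily, was in 6 of 8 and in 45.8% of all. The CArG box of serum response factor, the cyclic AMP element (TGACGTCA) and the AP-1 site (TGANTCA with C or G at N) were in none of the 8, and in 1.47%, 1.55% and 4.46% of all promoters. A match describes the letters only, and these 250 bases are a small part of each gene's control sequence.

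**Figure D1:**
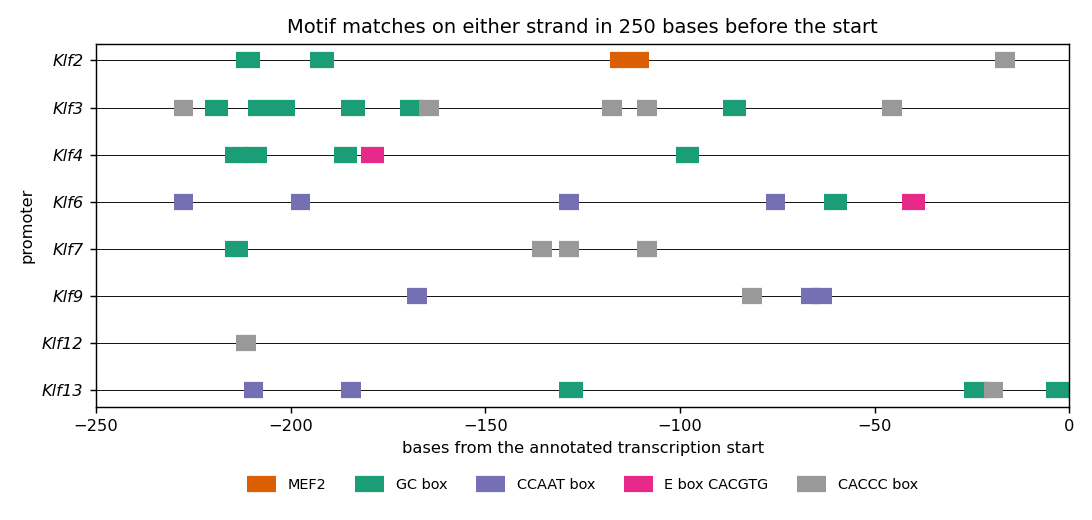
Motif matches in the 8 KLF promoters, plotted by bases from the transcription start (x axis) with 1 line per gene and 1 colour per motif. The single MEF2 match lies in Klf2, and the 4 CCAAT boxes of Klf6 are spread over its promoter.

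Abi1, the deleted gene, had mean log2 signals of 5.82 in KO and 11.55 in WT (limma adjusted p = 7.42e-08), and the arrays followed their labels. Kit, whose protein defines the sorting gate, averaged 14.38 in KO arrays (SD 0.37) and 14.67 in WT arrays (SD 0.16). Of 10 measured stem and progenitor markers, 8 had lower means in KO and 2 higher (median difference -0.18, and -0.30 without WT replicates 2 and 3). Hlf, a stem cell transcription factor gene, differed by -0.65 (SE 0.26, limma adjusted p = 0.786). The cytokine receptor gene Flt3 differed by -0.50 (SE 0.39). The 2 higher markers were Slamf1, by 0.44 (SE 0.54), and Gata2, by 0.26 (SE 0.25). The mean deviation of the 10 markers from their level over all arrays was lowest in KO replicate 1, at -0.28. KO replicates 2 to 4 had 0.05, -0.05 and -0.06, and WT replicates 1 to 5 had 0.08, -0.06, -0.12, 0.22 and 0.22. The arrays least like the rest were KO replicate 1 and WT replicate 5, whose median correlations over genes above background were 0.973 and 0.979, while the other 7 arrays had 0.987 to 0.992. WT replicates 2 and 3, at 0.990 and 0.991, were among those 7. Without KO replicate 1 and WT replicate 5 together, Klf2 differed by 1.43 (SE 0.88) and Klf6 by 1.14 (SE 0.50).

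In KO replicates 1 to 4 the log2 signal of Klf2, best known for keeping lymphocytes quiescent and for its response to blood flow in endothelium, was 11.35, 11.42, 10.78 and 10.62. In WT replicates 1 to 5 it had 10.94, 7.54, 8.96, 10.60 and 9.27. The KO arrays lay close together at the top of the range, and the WT arrays were spread over 3.40 log2 units, with replicate 1 within the KO range and replicate 4 just below it. KO averaged 11.04 ± 0.40 (SD, n = 4) and WT 9.46 ± 1.37 (SD, n = 5), a difference of 1.58 (SE 0.65), or 2.99-fold. In bulk samples, a change in the share of cells that carry a transcript and a change in its amount per cell cannot be told apart.

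Klf6, a broadly present factor with immediate early kinetics, had log2 signals of 14.90, 15.31, 14.80 and 14.52 in KO, against 14.62, 12.94, 13.08, 14.29 and 13.60 in WT. WT replicate 1 again lay among the KO arrays, and replicates 2 and 3 were again the lowest. KO averaged 14.88 ± 0.33 (SD, n = 4) and WT 13.71 ± 0.74 (SD, n = 5), a difference of 1.18 (SE 0.37), or 2.26-fold. The groups overlapped for Klf6, as for each of the 9 genes.

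Klf4, the monocyte and reprogramming factor, had log2 signals of 11.11, 12.19, 11.46 and 11.45 in KO, against 12.10, 9.56, 9.53, 12.18 and 10.59 in WT. WT replicates 1 and 4 were just below the highest KO array and above the other 3, and WT replicates 2 and 3 were lowest. KO averaged 11.55 ± 0.46 (SD, n = 4) and WT 10.79 ± 1.30 (SD, n = 5). The difference was 0.76 (SE 0.63), 0.44 without WT replicate 3 and 1.11 without WT replicate 4. Klf10, the early gene of TGF-beta signalling, had 10.32, 10.76, 9.97 and 10.04 in KO, against 10.01, 9.40, 8.93, 9.97 and 9.97 in WT. Its difference was 0.62 (SE 0.27), and WT replicates 2 and 3 were the 2 arrays below all KO values.

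Klf13, an activator of the chemokine gene Ccl5 in T lymphocytes, had 10.29, 10.54, 10.18 and 10.17 in KO, against 10.09, 9.74, 9.46, 10.17 and 10.47 in WT. The difference was 0.31 (SE 0.20), and 0.18 without WT replicate 3. WT replicate 5, low for Klf2 and Klf6, was the highest WT array for Klf13. Klf9, which glucocorticoid and thyroid hormones induce, had 6.95, 7.30, 6.86 and 6.52 in KO, against 6.86, 6.86, 6.88, 6.86 and 6.44 in WT. Its difference of 0.13 (SE 0.16) depended on single arrays, at -0.0033 without KO replicate 2, 0.04 without WT replicate 5 and 0.26 without KO replicate 4. The value 6.86 was shared by 4 arrays, and such equal values in different mice make the measured spread small.

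The remaining 3 genes had lower or nearly equal means in KO. Klf3, the CtBP-dependent repressor that the erythroid factor KLF1 induces, had 7.61, 7.75, 7.81 and 7.81 in KO, against 7.81, 8.02, 7.81, 7.77 and 7.94 in WT. Its difference was -0.12 (SE 0.067), with 4 arrays at 7.81. Klf12, another such repressor, had 5.97, 5.97, 5.52 and 5.77 in KO, against 6.47, 5.69, 5.89, 5.97 and 6.51 in WT. WT replicates 1 and 5 were the 2 arrays above all KO values, and the difference was -0.30 (SE 0.19). Klf12 lay close above background, which was 5.29 to 5.64 over the arrays. Klf7, studied mainly in neurons, had 7.69, 7.50, 7.50 and 7.33 in KO, against 7.06, 7.50, 7.76, 7.65 and 7.49 in WT, with a difference of 0.013 (SE 0.14).

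**Figure D2:**
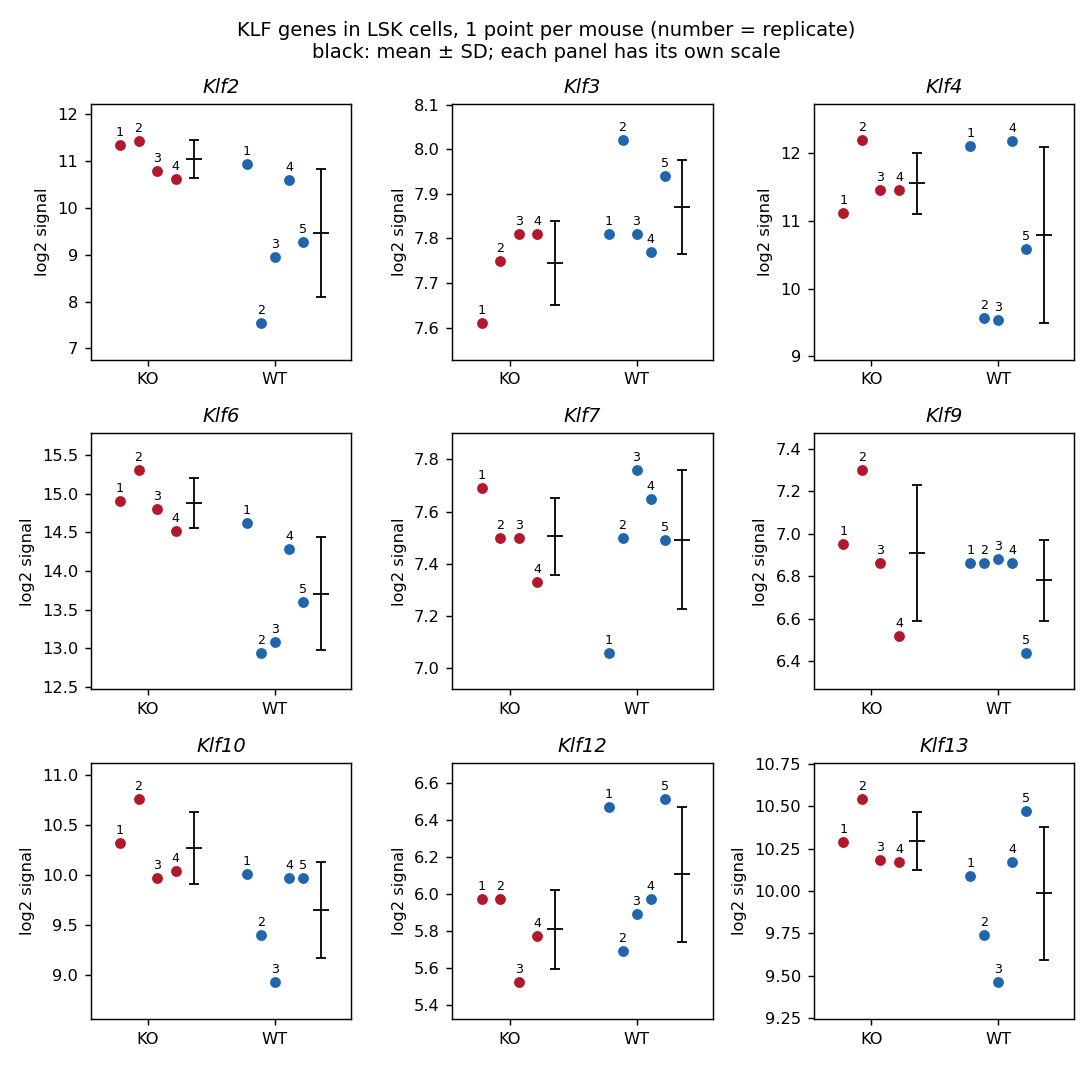
Log2 signals of the 9 KLF genes (y axis, own scale per gene) in KO and WT mice, 1 point per mouse with its replicate number, and black bars for mean ± SD. For Klf2, Klf4 and Klf6 WT replicates 2 and 3 lie lowest, and WT replicates 1 and 4 are the highest WT arrays.

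In the fit over all genes, 0 of the 9 genes passed limma's adjusted p of 0.05, where 0.00332% of 30142 genes passed, which was Abi1 alone. At an unadjusted p under 0.05 there were 3 of the 9 (Klf2, Klf6 and Klf10), against 5.01% of all genes. All 3 had the higher mean in KO, against 3.82%, and 0 were lower, against 1.19%. Groups that do not overlap were found for 0 of 9, against 0.856% of all genes (0.68% with KO higher). The choice of the genes used this contrast, so nothing is read from these counts. Of the 9, 7 had higher means in KO and 2 lower, with a median difference of 0.31. Of all 30142 genes, 19267 had higher and 10681 lower means in KO, with a median of 0.034, or -0.01 with each array centred on its median. Of the 16023 genes with a mean above background, as all 9 KLF genes had, 8700 had higher and 7285 lower means (median 0.018). Counts of higher means in any list are read against these. Counts at an unadjusted p under 0.05 in any other list are likewise read against the 3.82% of all genes higher and 1.19% lower. Among the 16023 genes above background, 803 were higher and 307 lower at that threshold.

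WT replicates 2 and 3 carried much of the distance between the groups. They were the lowest WT arrays for Klf2, Klf4, Klf6, Klf10, Klf12 and Klf13. Leaving them out could therefore only raise the WT means of these genes. Without both arrays, the difference was 0.77 (SE 0.44) for Klf2, 0.71 (SE 0.28) for Klf6, 0.29 (SE 0.19) for Klf10 and 0.05 (SE 0.13) for Klf13. The Klf4 difference changed sign, to -0.071. Klf12, lower in KO over all arrays, moved further down, to -0.51 (SE 0.17). The median over the 9 genes was then 0.10.

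**Figure D3:**
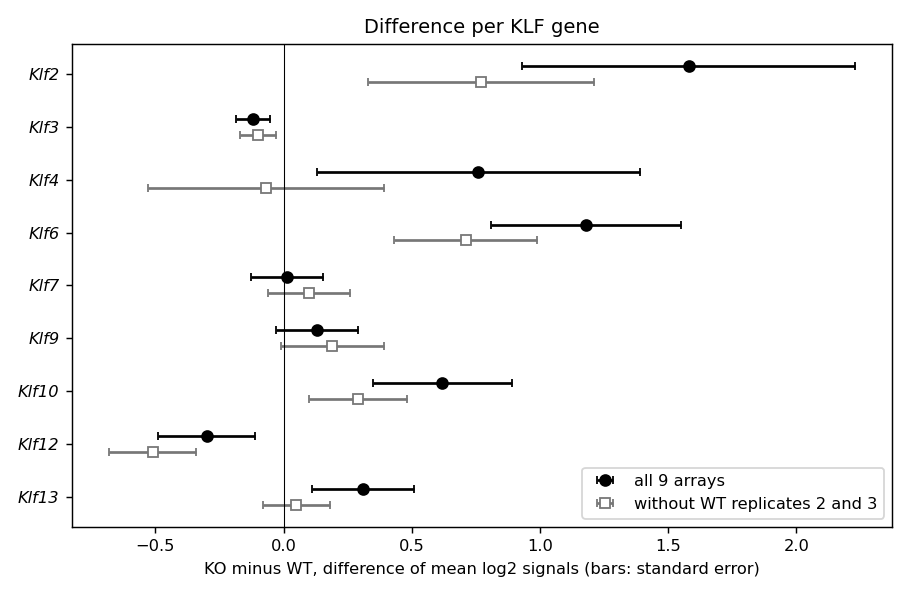
KO minus WT difference of mean log2 signals (x axis) for each KLF gene, with bars for the standard error, over all 9 arrays (black) and without WT replicates 2 and 3 (open squares). Over all arrays and without these 2, the values are 1.58 and 0.77 for Klf2, 1.18 and 0.71 for Klf6, and 0.76 and -0.071 for Klf4.

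Some of the genes also varied together among mice of 1 genotype. After each group's mean was removed, so that the difference between groups does not enter, Klf2 and Klf6 correlated at a Pearson r of 0.94 and a Spearman rho of 0.98 over the 9 arrays. Without the 2 arrays whose deviations lay farthest from the median for Klf2, WT replicates 1 and 2, r was 0.92. Most of the spread came from the WT arrays, and these values are a description with no p-value. Among 13558 genes above background with at least 6 distinct values, Klf6 was the gene most like Klf2. In return Klf2 ranked 4 and Klf4 ranked 2 among the genes most like Klf6.

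Klf4 correlated at 0.95 with Klf6 and 0.88 with Klf2, and r was 0.90 without the 2 arrays farthest for Klf4 (WT replicates 1 and 4) and 0.83 without those farthest for Klf2. Klf10 and Klf13 formed a second close pair, at 0.91, and 0.84 without the 2 farthest arrays. Klf10 also correlated at 0.80 with Klf6. Klf12 went with Klf13 and Klf10, at 0.73 and 0.71. These were 0.59 and 0.75 without the 2 farthest arrays, and 0.53 and 0.54 without WT replicates 2 and 3. Klf3 ran against Klf2, at -0.74, and -0.59 without the 2 farthest arrays, and -0.51 with each array centred on its median. Klf7 and Klf9 had no correlation above 0.32 with any of the others over all arrays. Of the 36 pairs, 8 had an r over 0.7 and 1 under -0.7, all over the same 9 arrays. WT replicates 2 and 3 set part of this pattern. Without them, r was 0.94 for Klf2 with Klf6 and 0.85 for Klf4 with Klf6, but 0.58 for Klf6 with Klf10, -0.31 for Klf2 with Klf13 (0.50 with them), and 0.91 for Klf6 with Klf9 (0.32 with them).

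**Figure D4:**
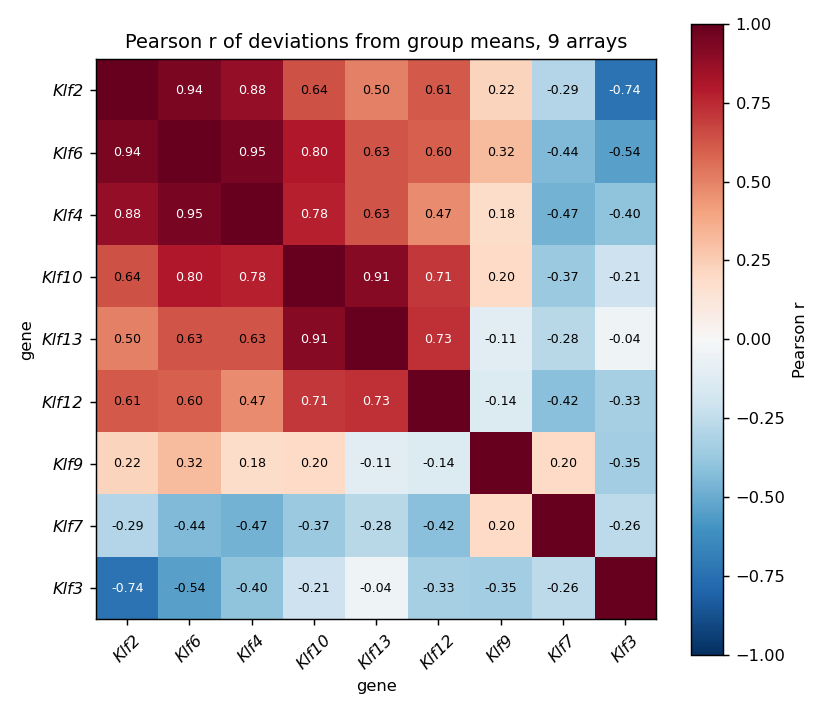
Pearson r between the 9 KLF genes over 9 arrays after each group's mean was removed, with 1 cell per pair. Klf2, Klf6 and Klf4 form a block at 0.88 to 0.95, Klf10 and Klf13 stand at 0.91, and Klf3 and Klf7 run mostly below 0.

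Outside the family, the genes whose deviations were most like those of Klf6 were Rnf19b, a ubiquitin ligase gene (r 0.961), Sqstm1 of autophagy (0.937), Cdkn1a (0.921), Ier2, an immediate early gene (0.915), the histone demethylase gene Kdm6b (0.911) and Skil, a brake on SMAD signalling (0.895). For Klf2 they were Tent5c (0.928), the helix-loop-helix inhibitor gene Id1 (0.922), Prr3 (0.894), Pramel24 (0.879) and 3 immunoglobulin variable segments (0.891 to 0.915). This likeness leaves out the difference between groups. Id1 differed by 1.4 (SE 0.62), but Tent5c, Prr3 and Pramel24 by only 0.16, 0.06 and 0.07. The 3 segments had lower means in KO (-1.07 to -0.71), and 1 of them was 4.34, below background, in WT replicate 2. The 100 genes most like each shared 53, or 53 of each list.

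Immediate early genes, the first to respond to a stimulus and to the handling of cells, were compared with the KLF genes. Of 21 measured of 22 listed, 18 had higher means in KO and 3 lower, and their median difference was 0.41, where all genes had 0.034. None passed the adjusted p of 0.05, while 5 had an unadjusted p under 0.05, all with the higher mean in KO, as for 3.82% of all genes. Jund, an AP-1 subunit gene, differed by 0.62 (SE 0.17), Ier3 by 0.66 (SE 0.20), Ier2 by 0.93 (SE 0.29) and Myc by 0.20 (SE 0.076), each with a limma adjusted p of 0.786. The groups did not overlap for Jund and Ier3, as for 0.856% of all genes.

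The mean deviation of the list from its level over all arrays was 0.13, 0.51, 0.13 and 0.12 in KO, against 0.29, -0.66, -0.91, 0.19 and 0.19 in WT. WT replicates 2 and 3 were thus low here as for the KLF genes, and without them the median difference of the list was 0.00. Of 20 list members above background, 12 correlated with Klf6 and 9 with Klf2 at an r over 0.7 within groups, where 1.43% and 1.46% of all genes compared did. Against the list's mean, r was 0.93 for Klf10, 0.91 for Klf13, 0.88 for Klf4, 0.86 for Klf6, 0.75 for Klf2 and 0.72 for Klf12. Without the 2 arrays whose deviations lay farthest from each gene's median these were 0.89, 0.90, 0.86, 0.81, 0.63 and 0.54. No gene lost both WT replicates 2 and 3 in this way, and Klf4 and Klf12 kept both. The correlations with the list without both were not computed. The other 3 did not follow the list, with an r of -0.21 for Klf3, -0.50 for Klf7 and -0.03 for Klf9. WT replicate 5 broke the pattern, low for Klf2, Klf6 and Klf4 (9.27, 13.60 and 10.59) and at 0.19 for the early genes. The part of handling or stimulation in the KLF differences was not tested.

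**Figure D5:**
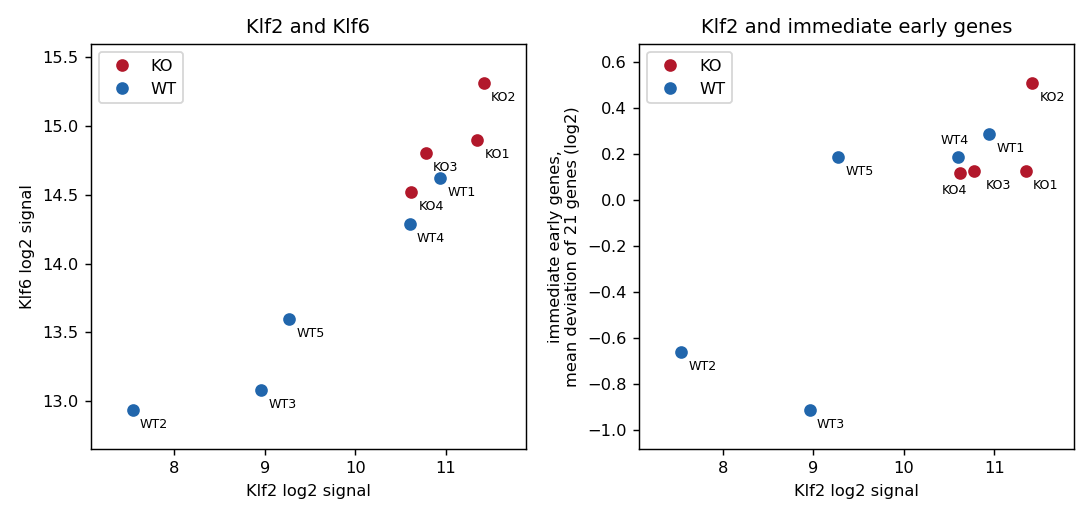
Klf2 log2 signal (x axis) against Klf6 log2 signal (left) and against the mean deviation of 21 immediate early genes (right), 1 point per array. WT replicates 2 and 3 lie low in both panels, and WT replicate 5 is low for Klf2 and Klf6 but not for the early genes.

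Of the other 8 KLF genes, 6 lay above background, 4 had higher and 4 lower means in KO, and none had an unadjusted p under 0.05 (median difference 0.015). Klf1, the master factor of red cell genes, had 7.76, 8.82, 9.60 and 9.57 in KO, against 8.94, 10.04, 8.95, 7.60 and 5.63 in WT. Its difference was 0.71 (SE 0.86), with WT replicate 5 the lowest. That array also stood apart for the red cell gene Car1, at 6.38 against 15.64 to 16.99 in the other WT arrays. Klf8, which KLF1 induces in red cell precursors, was 8.07 in 6 arrays and differed by -0.059.

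Klf11, a TGF-beta response gene like Klf10, differed by 0.13 (SE 0.20), Klf5 by -0.043, Klf15 by 0.033 and Klf16 by -0.038. The related SP factors bind the same GC boxes, and 8 of 9 were measured, 4 above background. Sp1 differed by -0.087 (SE 0.13), Sp3 by 0.099 (SE 0.081), Sp4 by 0.065 (SE 0.17) and Sp9 by 0.035 (SE 0.035). None of the 8 passed the adjusted p of 0.05 or had an unadjusted p under 0.05.

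Upstream genes of KLF2, among them the kinases of the ERK5 cascade, the MEF2 factors and FOXO1, were measured for 12 of 14. Of these, 2 had higher and 10 lower means in KO (median difference -0.032), and 0 had an unadjusted p under 0.05. Their mean deviation was -0.21, 0.06, 0.00 and -0.03 in KO replicates 1 to 4, against 0.02, 0.03, -0.08, 0.13 and 0.07 in WT. The MEF2 genes Mef2a, Mef2c and Mef2d differed by -0.069, -0.058 and 0.078. Cofactors and ubiquitin ligases of KLF proteins were measured for 16 of 16, with 2 higher and 14 lower means and a median of -0.077. Their mean deviation was -0.30, 0.07, 0.04 and -0.02 in KO, against 0.05, 0.08, -0.01, 0.07 and 0.02 in WT. KO replicate 1 was thus the lowest array for the upstream genes and for the cofactors and ligases. Hdac2, a histone deacetylase gene, was the 1 member with an unadjusted p under 0.05, with means of 12.41 in KO (SD 0.093) and 12.61 in WT (SD 0.13; limma adjusted p = 0.786).

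Genes that KLF factors are known to control in other cells were measured for 17 of 19, of which 13 had higher and 4 lower means in KO (median difference 0.13). None passed the adjusted p of 0.05. Cdkn1a had log2 signals of 13.04, 13.59, 12.54 and 12.37 in KO, against 12.93, 11.44, 10.91, 12.28 and 12.01 in WT. WT replicates 2 and 3 were the lowest, and the difference was 0.97 (SE 0.42, limma adjusted p = 0.786). Tgfb1 had 13.36, 13.64, 13.75 and 13.53 in KO, against 13.43, 13.27, 13.27, 13.25 and 13.02 in WT, a difference of 0.32 (SE 0.099, limma adjusted p = 0.786). These 2 alone in the list had an unadjusted p below 0.05, both with the higher mean in KO, as for 3.82% of all genes. S1pr1, the egress receptor gene that KLF2 drives in T cells, differed by 0.28 (SE 0.13), and the integrin gene Itgb7 by -0.031 (SE 0.10).

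Glucocorticoid response genes, listed because Klf9 belongs to that response, had higher means in KO in 6 of 6, with a median of 0.23 and 0.05 without WT replicates 2 and 3. Tsc22d3 differed by 0.43 (SE 0.13), the 1 member with an unadjusted p under 0.05 (limma adjusted p = 0.786). Klf9 itself differed by 0.13.

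Markers of other cells were set beside the KLF genes, since mature T and B cells carry Klf2 and monocytes Klf4. Of 9 measured T cell markers, 5 (Cd3e, Cd4, Cd8a, Cd8b1 and Zap70) lay at or below background in every array, and the list's mean log2 signal was 5.85 to 6.02 in KO and 5.72 to 5.91 in WT. Of 9 B cell markers, 5 (Ms4a1, Pax5, Cr2, Fcer2a and Blk) lay there too, with list means of 5.50 to 5.59 in KO and 5.36 to 5.49 in WT. Other members of both lists had higher means in KO with an unadjusted p under 0.05. Lat, a T cell receptor adaptor gene, averaged 12.94 in KO and 12.54 in WT. Cd79b, of the B cell receptor, averaged 8.22 in KO and 7.76 in WT. The groups did not overlap for Lat and Cd79b, as for 0.856% of all genes (0.68% with KO higher). Ebf1, an early B cell factor gene, averaged 5.82 in KO and 5.34 in WT. Each had a limma adjusted p of 0.786.

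Neutrophil markers had higher means in KO in 10 of 10, of which 6 had a mean above background. The largest differences were those of S100a8, 2.96 (SE 1.35), and S100a9, 2.54 (SE 1.31), each with a limma adjusted p of 0.786. S100a8 was 12.58, 10.87, 6.52 and 7.48 in KO replicates 1 to 4. The smallest was that of Mmp9, 0.03, with 3.90 in 8 arrays. The list's means were 5.73 to 7.91 in KO and 5.34 to 6.48 in WT, highest in KO replicates 1 and 2. These were also the highest KO arrays for Klf2, Klf6 and Klf10. Without both, Klf2 differed by 1.24 (SE 0.95), Klf6 by 0.95 (SE 0.51) and Klf10 by 0.35 (SE 0.33).

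With group means removed and both groups pooled, the neutrophil list's mean deviation correlated at 0.04 with Klf2 and -0.02 with Klf6. With Klf7 and Klf9 it correlated at 0.56 and 0.61. The pooled r hides a contrast between the groups. In KO, replicates 1 and 2 were highest for the list (1.65 and 1.47) and for Klf2 and Klf6. In WT, the list was highest in replicate 3 (0.22), where Klf2 and Klf6 were low (8.96 and 13.08). Monocyte markers had higher means in KO in 7 of 9, with list means of 8.53 to 9.25 in KO and 8.41 to 9.05 in WT, and an r of -0.04 with Klf4. Ly6c2, of inflammatory monocytes, had the largest difference of that list, 1.51 (SE 0.62, limma adjusted p = 0.786). The lower means were those of Cd68, by -0.36 (SE 0.41), and Adgre1, by -0.12 (SE 0.14).

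Mast cell and basophil markers had higher means in 7 of 7 (9.29 to 9.70 in KO, 7.92 to 9.56 in WT) and megakaryocyte markers in 7 of 7 (9.34 to 9.73 in KO, 7.40 to 9.65 in WT), both lowest in WT replicate 5. The groups did not overlap for 3 of the 7 mast cell and basophil genes, as for 0.856% of all genes (0.68% with KO higher). They were the protease genes Cma1, with a difference of 0.82 (SE 0.15), and Tpsb2, with 0.82 (SE 0.19), and the IgE receptor gene Fcer1a, with 1.21 (SE 0.32). Each had a limma adjusted p of 0.786. Unadjusted p-values under 0.05 were also found for the neutrophil genes Cxcr2 (0.25) and Mmp8 (0.27), the platelet gene Gp9 (0.43) and the endothelial gene Tie1 (-0.37), with the differences in brackets. Mmp8 lay above background in only 1 array. Endothelial markers had higher means in 5 of 7 (6.95 to 7.12 in KO, 6.97 to 7.16 in WT), NK cell markers in 5 of 7 (5.66 to 5.79 in KO, 5.21 to 5.79 in WT) and erythroid markers in 6 of 7 (8.58 to 9.56 in KO, 6.66 to 9.70 in WT). By mean, 4 of 7 endothelial, 3 of 7 NK cell and 6 of 7 erythroid markers lay above background. None of these markers passed the adjusted p of 0.05. The part of these cells in the KLF differences was not tested.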

How the data were processed

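LSK cells of 4 KO and 5 WT mice were measured on Affymetrix whole-transcript arrays, 1 per mouse. The deposited values are log2 probeset signals, as their range of 1.84 to 19.45 implies. The authors' summarisation, normalization and log base are, in the sources used here, not given. Partek 6.6 is named in the submitters' processing notes.

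Probesets with exactly 1 symbol in the platform annotation were kept (symbols updated through Entrez identifiers to RefSeq, GRCm38.p6), the brightest by mean per gene. The background of an array, 5.29 to 5.64, was percentile 95 over 1717 receptor genes for smell and pheromones. Precision is limited by how many arrays there are. The test was limma 3.58.1 (R 4.3.3) for KO against WT (no covariate, no trend, Benjamini-Hochberg over 30142 genes, threshold 0.05), checked on simulated data. The labels call the replicates biological.

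The KLF genes and all lists were chosen with earlier results of these data known. Named are the 9 genes, Abi1, Kit, other KLF and SP genes above background, per list of other genes up to 4 members with an unadjusted p under 0.05 (marker lists are given as ranges), and the 8 genes most like Klf2 and Klf6 (above background, at least 6 distinct values, no gene models or small RNAs). S1pr1, Itgb7, the MEF2 genes, Fkbp5, Nr3c1, Car1 and the markers other than Kit were picked for naming with their values known. Alternatives were quantile and median normalization, dim genes left out, all probesets, a variance trend, a replicate block and arrays left out. The main fit did not treat replicate numbers as pairs. Deviations of same-numbered mice, replicates 1 to 4, correlated at -0.18, 0.15, -0.01 and 0.27. The highest r of each of these KO arrays with a WT array of another number was 0.29, 0.07, 0.35 and 0.27. Whether the numbers pair the mice cannot be told from these mixed values.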

Additional observations from a re-analysis of the deposited data

Results flagged for a closer look

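For 29 named genes, each in both groups, 10 of 58 checks found a value far from the rest of its group by Dixon's test, where chance flags about 1 in 20 groups and equal values flag more. Of the 9 KLF genes this met Klf9 alone, which was 6.44 in WT replicate 5 while the remaining WT arrays held 6.86 to 6.88. In KO replicate 1, Kit was 13.82 (14.53 to 14.58 in the other KO arrays), Klf5 6.10 (6.27), Sp1 9.91 (10.39 to 10.41), Sp3 10.55 (10.22) and Sp4 9.28 (8.91). Klf15 was 6.17 in KO replicate 3 and 6.12 in the other KO arrays. Kit was 14.39 in WT replicate 3 and 14.70 to 14.78 in the other WT arrays. In WT replicate 4, Klf8 was 8.08 (8.07 in the other WT arrays) and Klf16 was 6.47 (6.18 to 6.23).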

How the results depend on the processing

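Under 18 alternatives, the count of genes past the adjusted p of 0.05 stayed at 1, and the Abi1 difference lay between -5.82 and -5.65 with single arrays left out. With single arrays left out, Klf2 differed by 1.10 to 1.95, Klf6 by 0.98 to 1.40, the median of the 9 KLF genes by 0.18 to 0.43, and the correlation of Klf2 with Klf6 within groups was 0.90 to 0.97. Quantile normalization gave 1.6 for Klf2 and 1.08 for Klf6. With the replicate block, over replicates 1 to 4, Klf2 differed by 1.53 and Klf6 by 1.15, and 1 gene passed, so the block changed no call. Over the 162 combinations of gene and alternative, 8 differences changed sign. They belonged to Klf4 without WT replicates 2 and 3 (-0.071), to Klf9 without KO replicate 2 (-0.0033) or KO replicates 1 and 2 (-0.09), and 5 to Klf7, whose difference was 0.013. The causes were not tested. The left-out sets WT 2 and 3 and KO 1 and 2 were chosen with earlier results known. Their use for the correlation, 0.94 without WT replicates 2 and 3, was added after seeing the data. All 9 genes have 1 probeset, so no second probeset checks them.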
